A study of Mus musculus with 2 samples.

Results

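Lysosomal hydrolases, cathepsins and the membrane and regulatory proteins that work with them were examined in cultured mammary basal cells, as a list of 38 genes chosen by name out of 49492 genes in the count table. Lysosomes are acidic organelles in which peptidases, glycosidases and lipid-degrading enzymes break down material that arrives by endocytosis, phagocytosis and autophagy. The cathepsins are their main peptidases, and most belong to the papain family of cysteine enzymes. Lysosomal enzymes are made as inactive precursors and can also be secreted, and they are abundant both in epithelium and, in a partly different set, in macrophages. In the mammary gland, lysosomal proteolysis is best known from the regression of the gland after weaning.

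The cells came from WT adult female mice (glands of 8 to 10-week-old animals by the study's methods), from which basal epithelial cells were sorted and grown in a 3D matrix, alone (ctrl) or for 11 to 14 days in wells shared with M2-like macrophages (M2). The time in culture of the ctrl library is not stated separately. The macrophages were derived from the bone marrow of C57/B6 mice and polarised with IL-4 and IL-13, and by the study's methods they sat in a porous insert above the matrix. Medium with EGF and insulin, transferrin and selenium was common to both groups and any pooling of animals is not given in the sources used here. Each group holds 1 library, so the spread between cultures is unknown, and no p-values are given.

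The libraries held 26912610 reads (ctrl) and 29413844 reads (M2) in genes, with 4.83% and 4.11% in mitochondrial genes. The basal epithelium markers were present in both, with 1.06% and 1.12% of all reads over 12 genes. Single genes of this list went both ways, with 6 values above 0 and 6 below. Oxtr (8324 and 1920 reads) was at least 2-fold lower in M2 and Krt17 (6051 and 16592) at least 2-fold higher. The luminal markers held 0.471% and 0.359% of the reads. Of these, 6 of 12 were at least 2-fold lower in M2 and 0 higher. The shares of all genes with at least 10 reads were 7.82% and 9.53%. Krt8, Krt18 and Epcam were within 2-fold. The summed fibroblast markers were lower in M2 by a log2 value of -1.86, with most reads from collagen genes. Of the 10 with at least 10 reads, 6 were at least 2-fold lower. Dcn was higher (51 and 157 reads), and Col1a1, Pdgfra (607 and 822) and Thy1 (257 and 253) were within 2-fold. Single markers were named after their values were seen. Changes in the number of cells of a type and in RNA per cell cannot be told apart in such libraries. Intervals below cover counting error only.

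As a whole the lysosomal genes differed little between the libraries. Of the 38 genes, 36 had at least 10 reads summed over both libraries. Only Ctsc and Ctsz among these 36 were at least 2-fold higher in M2, and 0 were at least 2-fold lower. Over all 19233 genes with that many reads, 9.53% were at least 2-fold higher and 7.82% at least 2-fold lower. Each of the 36 also had at least 100 reads, and among the 14148 genes with so many the shares were 6.45% and 4.64%. A count of 2 in 36 is therefore near the background for the higher side. The median log2 fold difference (M2 over ctrl) of the 36 genes was -0.04, against -0.0032 over all genes with at least 10 reads. At a threshold of 1.5-fold, 3 lysosomal genes were higher and 0 lower. The background was 16.5% and 14.8% over genes with at least 10 reads. Of the 14148 genes with at least 100 reads, 1750 were higher and 1464 lower by this threshold. The quartiles of the lysosomal values ran from -0.20 to 0.14, and that of all genes with at least 100 reads from -0.26 to 0.28. Within 0.5 of 0 on the log2 scale lay 31 of the 36 genes, or 86.1%, against 72.5% of genes with at least 100 reads. Counting error alone left 12 of the 36 values with a 95% interval that includes 0, with 11 above it and 13 below. Intervals lay above 0 for 28.8% and below it for 27.9% of all genes with at least 10 reads, and for 33.4% and 32.6% of those with at least 100, so these counts are near the background.

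**Figure D1:**
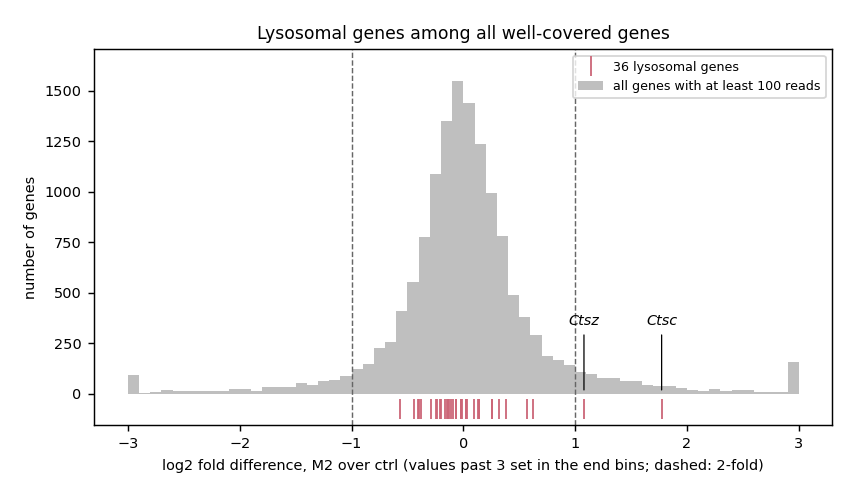
Log2 fold differences (M2 over ctrl, x axis) of the 14148 genes with at least 100 reads, as a histogram of gene numbers (y axis), with the 36 lysosomal genes as ticks under it. The ticks lie between -0.57 and 0.62 except for Ctsz at 1.08 and Ctsc at 1.77, beyond the dashed line at 2-fold.

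Ctsc encodes dipeptidyl peptidase I, a cathepsin that removes dipeptides from the ends of proteins and activates serine peptidases of immune granules. It lies on chromosome 7 from 88278085 to 88310888 (GRCm38), and no exon of another listed gene overlaps its exons. It had 2009 reads in ctrl and 7210 in M2, which is 12.6 and 43.1 reads per kilobase scaled to library size (RPKM, a level per length). The log2 fold difference was 1.77 (95% interval 1.70 to 1.85), a 3.42-fold higher level in M2. Among all genes with at least 10 reads, 96.0% had a lower value, so that 772 genes exceeded it. Ctsc moved from rank 20 of the 38 genes by level in ctrl to rank 10 in M2.

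Ctsz encodes cathepsin X, a carboxypeptidase with an integrin-binding motif in its propeptide. It lies on chromosome 2 from 174427493 to 174439039, and 0.694% of its exon bases are shared with Nelfcd. Ctsz had 881 reads in ctrl and 1954 in M2, levels of 22.3 and 47.1 RPKM. Its log2 fold difference of 1.08 (0.96 to 1.20) was just past 2-fold, and 1692 genes exceeded it. The interval reaches below 2-fold, and after a trend with gene length was removed the value was 0.996, so Ctsz stands at the threshold. Only Ctsc keeps its whole interval past 2-fold, as 4.88% of all genes did on the higher side and 3.53% on the lower side. Ctsc and Ctsz are on different chromosomes, and the 100 bases before their RefSeq start sites (GRCm38.p6) are shown because these are the genes that differed, with no capitals since the motif searched below is in neither window.
Ctsc, chr7:88277985-88278084, plus strand: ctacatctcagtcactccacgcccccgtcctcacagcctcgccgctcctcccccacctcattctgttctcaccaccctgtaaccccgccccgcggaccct
Ctsz, chr2:174439040-174439139, minus strand: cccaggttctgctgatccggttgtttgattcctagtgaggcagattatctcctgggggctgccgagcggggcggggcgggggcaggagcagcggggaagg

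The other cysteine cathepsins stayed within 2-fold, in both directions. Ctsl, a broad endopeptidase, had 19662 and 20988 reads (363 and 369 RPKM), and its log2 difference of 0.02 had an interval that includes 0 (-0.0032 to 0.05). Ctsb, an endopeptidase and exopeptidase, had 7474 and 9393 reads and a difference of 0.26 (0.22 to 0.30). Part of the Ctsb exons, 16.2% of their bases, overlaps Fdft1. The aminopeptidase Ctsh had 2043 and 2358 reads and differed by 0.14. Ctsf had 661 and 468 reads, and its value of -0.57 (-0.74 to -0.39) was the lowest of the 36 genes. The sparse Ctso, with 393 and 387 reads, differed by -0.09. Ctsk, the collagen-degrading cathepsin of osteoclasts and fibroblasts, had 87 and 69 reads, a difference of -0.40 whose interval includes 0 (-0.88 to 0.07). The fibroblast markers, which did not all go the same way, held 31221 and 8994 reads in the same libraries. Their part in the Ctsk value was not tested. Ctss, the cathepsin of antigen-presenting cells, had 5 reads in ctrl and 2 in M2, too few to be counted, with an interval of -4.78 to 1.22.

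The cathepsins that are not cysteine enzymes also stayed within 2-fold. Ctsd, the aspartic endopeptidase of lysosomes, had 21454 and 28093 reads, the most of any of the 38 genes in each library. Its log2 difference was 0.32 (0.29 to 0.35), and 34.4% of its exon bases overlap RP23-145I16.3, so that reads of the pair cannot be assigned with certainty where the use of strand is not stated. The serine carboxypeptidase Ctsa had 2736 and 2172 reads and differed by -0.40 (-0.48 to -0.32), with 17.4% of its exon bases shared with Neurl2 and Pltp. Tpp1, a tripeptidyl peptidase, had 2514 and 2527 reads and a difference of -0.06, with an interval that includes 0. Summed over the 11 cathepsin genes, reads went from 57405 to 73094, a log2 ratio of 0.28 (0.26 to 0.30). This sum gives most weight to abundant genes such as Ctsd. The 10 cathepsin genes with at least 10 reads had a median of 0.08, with 6 values above 0 and 4 below.

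**Figure D2:**
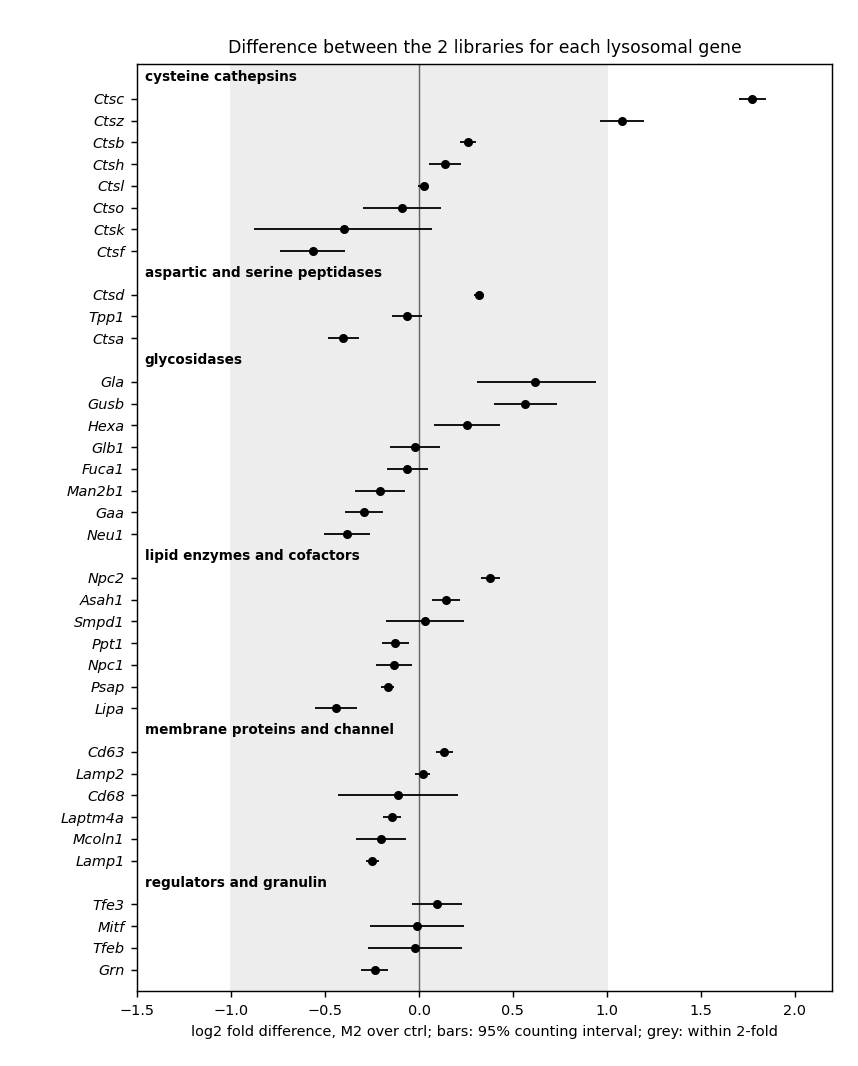
Log2 fold difference of each lysosomal gene with at least 10 reads (x axis, M2 over ctrl), grouped by role, with 95% Clopper-Pearson counting intervals as bars and the range within 2-fold in grey. Ctsc at 1.77 (1.70 to 1.85) is the only gene whose whole interval lies outside the grey range, and Ctsf at -0.57 is the lowest.

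Levels per length set apart a small group of abundant genes. In ctrl the order by RPKM began with Ctsl (363), Ctsd (332), the tetraspanin Cd63 of late endosomes (253), Psap (206) and Lamp1 (191). The same genes led in M2 with Ctsd first at 415, followed by Ctsl (369), Cd63 (277), Psap (183) and Lamp1 (161). The counting intervals of these neighbours did not overlap in either library, so the exchange of places between Ctsl and Ctsd lies beyond these intervals. The ratio of Ctsd to Ctsl per length went from 0.915 to 1.12. Together the 5 genes made up 68.2% of the summed RPKM of the 38 genes in ctrl and 67.5% in M2. Further down the order the genes are less well separated: 17 of 37 neighbouring pairs in ctrl and 18 in M2 had overlapping intervals. The median level was 13.2 RPKM in ctrl and 12.4 in M2, against 3.74 over all genes with at least 10 reads in both libraries, and 30 of the 38 genes lay above that value. Lengths here are those of all annotated exons, which lowers the RPKM of genes with long or alternative exons.

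**Figure D3:**
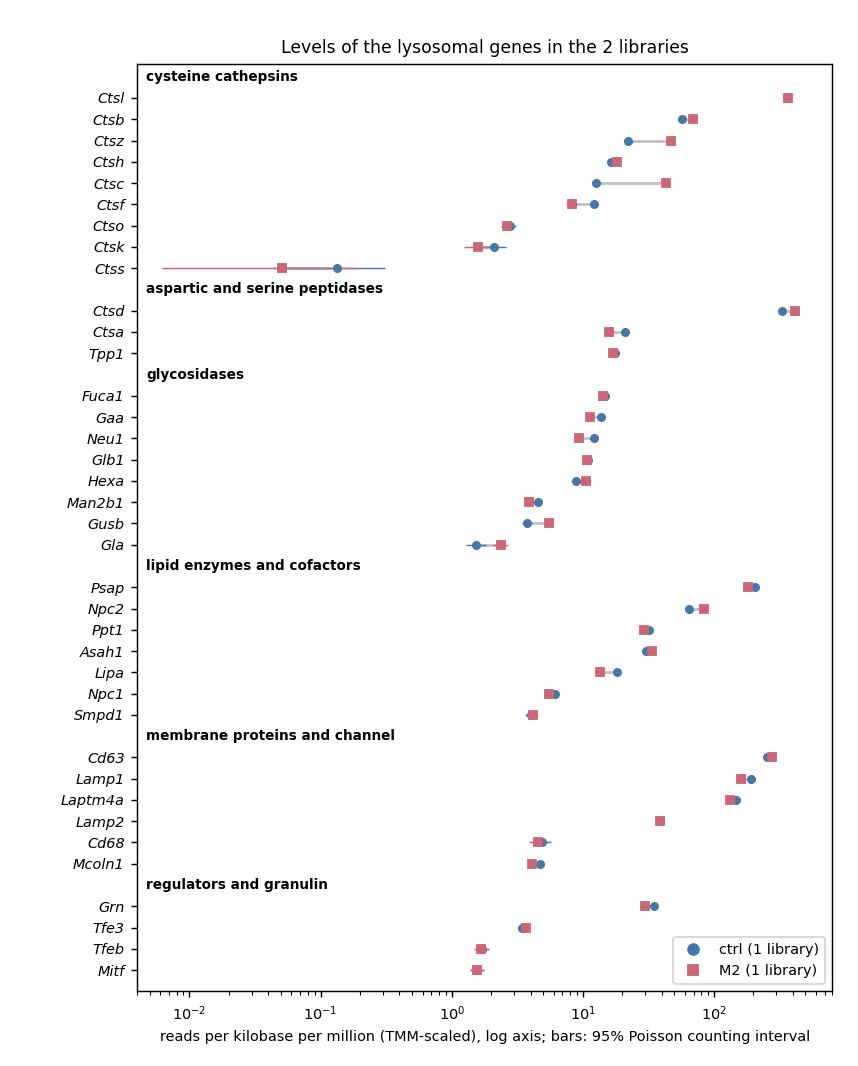
Level of each lysosomal gene in RPKM (x axis, logarithmic) in ctrl (circles) and M2 (squares), grouped by role, with 95% Poisson counting intervals as bars. Levels run from under 1 for Ctss to over 300 for Ctsl and Ctsd, most pairs of points nearly coincide, and the widest gaps among well-covered genes are those of Ctsc (12.6 and 43.1) and Ctsz (22.3 and 47.1); Laptm5, at 0 in both libraries, is not drawn.

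The glycosidases, which remove sugars from glycoproteins and glycolipids, went both ways. Gla, the alpha-galactosidase A that is deficient in Fabry disease, had 138 and 223 reads and the highest value of the group, 0.62 (0.31 to 0.94). Gusb, the beta-glucuronidase, followed with 468 and 727 reads and 0.57 (0.40 to 0.74). Hexa, the alpha subunit of beta-hexosaminidase, had 489 and 612 reads and differed by 0.25. All 3 had intervals above 0, and Gla alone exceeded 1.5-fold. Below 0 with their whole intervals were the sialidase Neu1 (1246 and 1003 reads, -0.38), the acid alpha-glucosidase Gaa (1817 and 1556 reads, -0.29) and the alpha-mannosidase Man2b1 (996 and 905 reads, -0.21). The beta-galactosidase Glb1, with 898 and 928 reads, and the fucosidase Fuca1, with 1341 and 1348, had intervals that include 0. Neu1, Glb1 and Ctsa form a complex in the lysosome, and their values were -0.38, -0.02 and -0.40.

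Among the genes of lipid handling, Npc2, the soluble cholesterol carrier of the lysosomal lumen, had 5751 and 7848 reads and a difference of 0.38 (0.33 to 0.43). Its membrane partner Npc1, which takes over the cholesterol, had 1800 and 1721 reads and a difference of -0.13 (-0.23 to -0.04), so the partners had opposite signs. Lipa, the acid lipase that splits cholesteryl esters and triglycerides, had 1494 and 1154 reads and the lowest value of the group, -0.44 (-0.55 to -0.33). Psap, the precursor of the saposins that present sphingolipids to their hydrolases, had 15494 and 14473 reads and differed by -0.17. The acid ceramidase Asah1 (2835 and 3287 reads) had a value of 0.14, and the palmitoyl-protein thioesterase Ppt1 (3250 and 3123 reads) one of -0.13. Smpd1, the acid sphingomyelinase, had 371 and 398 reads and an interval that includes 0.

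The membrane proteins of the lysosome lay between -0.25 and 0.13. Lamp1 and Lamp2, the main glycoproteins that line the membrane, had 14012 and 12373 reads and 10104 and 10749 reads. The difference of Lamp1 was -0.25 (-0.28 to -0.21), and that of Lamp2 was 0.02 with an interval that includes 0. Cd63 had 7152 and 8233 reads (0.13), and Laptm4a, a small membrane protein of late endosomes, had 7137 and 6779 (-0.14). Mcoln1, the calcium channel TRPML1, had 980 and 893 reads and a value of -0.20 (-0.34 to -0.07). Cd68, a relative of the Lamp proteins that is used as a macrophage marker, had 170 and 165 reads and a value of -0.11, with an interval that includes 0. Laptm5, a relative of Laptm4a found in blood cells, had 0 reads in both libraries, where a count of 0 allows up to 3 reads, or 0.109 CPM (the count scaled to library size, without length) in ctrl and 0.104 in M2.

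Tfeb, Tfe3 and Mitf are related transcription factors that bind the CLEAR element, an extended E-box, in the promoters of lysosomal genes. Tfeb had 264 and 273 reads, Tfe3 875 and 981, and Mitf 267 and 278. The differences were -0.02, 0.10 and -0.01 and each interval includes 0, so at this depth no difference in their transcripts was detectable. Tfe3 was the most abundant of them per length, with 3.44 and 3.68 RPKM against 1.70 and 1.67 for Tfeb and 1.57 and 1.56 for Mitf. Nothing is measured here of the place of these proteins in the cell, by which they are mainly regulated. Grn, the progranulin precursor whose products act in the lysosome, had 3359 and 2993 reads and differed by -0.24 (-0.31 to -0.16).

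The CLEAR core TCACGTGA, a palindrome that reads the same on both strands, was searched in RefSeq promoters of 300 bases, from 250 before to 50 after a start site. Promoters were found for 34 of the 38 genes. Those of Asah1, Ctsb, Ctsh and Npc1 were not matched. The core was present for 4 of the 34 genes, or 11.8%, and for 1.12% of all 27025 genes with a promoter. The shorter E-box CACGTG, which lies within the core, was present for 9 of the 34 (26.5%) and for 8.09% of all genes. Ctsc and Ctsz hold neither in this window, which says nothing of other sites. The genes with the core were Ctsa, Ctsd, Gla and Mcoln1, and their log2 differences of -0.40, 0.32, 0.62 and -0.20 had both signs. Their sites are printed with the core in capitals, because Tfeb, Tfe3 and Mitf bind this element. Binding was not measured here. For Ctsa, Ctsd and Mcoln1 only 30 bases are given, since the window overlaps a listed exon, and the Gla window holds the core at 2 places.
Ctsa, chr2:164833749-164833778, plus strand: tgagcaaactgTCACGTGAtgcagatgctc
Ctsd, chr7:142387908-142387937, minus strand: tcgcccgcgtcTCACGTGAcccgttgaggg
Gla, chrX:134601178-134601255, minus strand: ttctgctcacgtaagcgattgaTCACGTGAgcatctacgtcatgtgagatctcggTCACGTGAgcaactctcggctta
Mcoln1, chr8:3500462-3500491, plus strand: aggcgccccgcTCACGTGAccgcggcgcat

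The higher Ctsc and Ctsz reads were set beside transcripts of macrophages, in which both genes are also expressed. The macrophage list of 24 genes held 1621 and 2292 reads, mostly from Arg1 (1507 and 2090 reads), which is not specific to macrophages. Without Arg1 the other 23 genes held 114 and 202 reads, or 4.15 and 7.01 CPM, a log2 ratio of 0.76 (0.42 to 1.10). Of the 24 genes, 8 had 0 reads in both libraries, among them the defining markers Adgre1, Ptprc, Tyrobp and Fcer1g. At or under 3 reads were 21 genes in ctrl and 16 in M2. Of the 49492 genes in the count table, 24415 had a read in ctrl and 24986 in M2. Aif1 (3 and 40 reads), Cd163 (2 and 30), Itgam (3 and 9) and Marco (0 and 9) had more reads in M2, while Csf1r had 94 and 92. Lysosomal genes that are also abundant in macrophages or osteoclasts went different ways. Cd68 had 170 and 165 reads, Ctss 5 and 2 and Laptm5 0 in both, while Acp5 (65 and 142 reads) and Tcirg1 (482 and 1016) were past 2-fold higher in M2 and Gpnmb had 32 and 49 reads with an interval that includes 0. These genes were chosen after their values were seen, and the part of macrophage RNA in the Ctsc and Ctsz values was not tested.

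**Figure D4:**
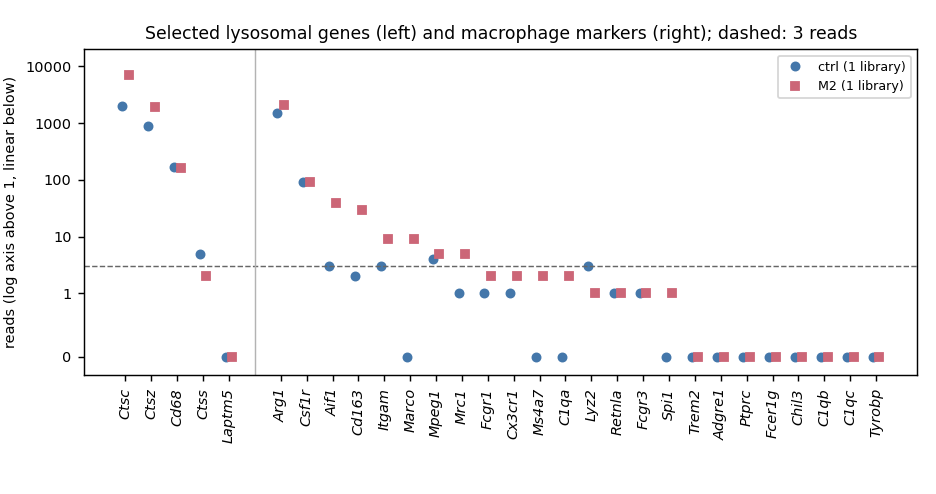
Reads per library (y axis, logarithmic above 1 and linear below) in ctrl (circles) and M2 (squares) for Ctsc, Ctsz, Cd68, Ctss and Laptm5 on the left and for the 24 macrophage markers on the right, with a dashed line at 3 reads. Ctsc and Ctsz are separated between the libraries and Cd68 is not. At or under the line lie 21 macrophage markers in ctrl and 16 in M2. Arg1 and Csf1r lie above it in both libraries, and those above it in M2 also include Aif1 and Cd163.

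Beyond the 38 genes, 8 lists of other lysosome and autophagy genes were counted, with 189 genes of which 167 had at least 10 reads. Together 7 were at least 2-fold higher and 7 at least 2-fold lower in M2, and the median was -0.06. The background over all genes with at least 10 reads was 9.53% and 7.82%. Most of the 167 had at least 100 reads, and over all genes with so many it was 6.45% and 4.64%. The other hydrolases and activators had a median of -0.09 over 30 genes. Only Acp5 (65 and 142 reads, 1.05), the tartrate-resistant acid phosphatase, was past 2-fold, and its call was lost on its interval, which starts at 0.62, by library size with or without mitochondrial genes, and with the gene length trend taken out (lowest value 0.976). Of the 11 further cathepsin genes, 9 had 0 reads in both libraries. Only Ctsw had enough reads to be counted, with 10 and 19, and Ctse had 6 and 0.

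Lysosomal membrane proteins and transporters had the lowest of the list medians, -0.26 over 30 genes, and 17 of them had intervals below 0 against 4 above. The background was 27.9% and 28.8%, or 32.6% and 33.4% over genes with at least 100 reads. Ctns, the cystine exporter cystinosin, had 3358 reads without macrophages and 877 with them, and its log2 difference was -2.00 (-2.12 to -1.90). Scarb2, the receptor that carries glucocerebrosidase to the lysosome, had 14058 and 8579 reads and a value of -0.78, and Cd164 had 6657 and 4108 and -0.77. These 2 genes were chosen after their values were seen. The iron transporter Slc11a2 was past 2-fold in the other direction (804 and 1719 reads, 1.03), but not over its whole interval (0.91 to 1.15) nor by library size with or without mitochondrial genes (lowest value 0.956). Summed reads of the list went from 43727 to 32723, a log2 ratio of -0.49 (-0.51 to -0.47). Scarb2, Ctns and Cd164 carried most of it, with 24073 and 13564 reads. Without them the other 30 genes had 19654 and 19159 reads and a ratio of -0.11 (-0.13 to -0.08), near the -0.08 (-0.10 to -0.06) of the membrane proteins among the 38 genes.

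The proton pump that acidifies lysosomes (V-ATPase) had a median of -0.13 over 22 subunit genes, with 10 values above 0 and 12 below. Its subunit genes Atp6v1b1 (15090 and 7031 reads, -1.17) and Atp6v0e2 (270 and 122 reads, -1.21) were at least 2-fold lower. Atp6v0e2 was not so over its whole interval (-1.54 to -0.90). Atp6v1b2, the gene of the other B subunit, had 1514 and 1813 reads and a value of 0.19 (0.09 to 0.29). It was named after its value was seen. Tcirg1 (482 and 1016 reads, 1.01), which encodes an a3 subunit, was just past 2-fold higher, a call lost on its interval (0.85 to 1.17), by library size with or without mitochondrial genes and with a pseudocount of 5 reads (lowest value 0.935). Genes of hydrolase delivery had a median of -0.02 over 25 genes. The sorting receptor Sort1 was lower (3556 and 1540 reads, -1.28). Gnptab, the enzyme that adds the mannose 6-phosphate tag, had 1741 and 3617 reads and a value of 0.99, and was named after its value was seen.

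Among the cathepsin inhibitors, 7 of 14 genes had enough reads, with a median of 0.58 and quartiles of -0.29 and 1.47. Of the 7, 2 were at least 2-fold higher and 1 lower, where the background was 9.53% and 7.82%. Summed reads of the list had the opposite sign to the median. They went from 10839 to 9508, a log2 ratio of -0.26 (-0.30 to -0.22). Serpina3n, a secreted serpin, that is a serine peptidase inhibitor, had 82 and 467 reads and a difference of 2.43 (2.10 to 2.80). Serpinb6a, another serpin, had 1634 and 3186 reads and a value of 0.89, and was named after its value was seen. Both serpins enter the median of the list, and their action on the cathepsins counted here was not measured. Stfa3 was past 2-fold with only 2 and 12 reads and an interval from 0.35 to 5.72. Cst6, a cystatin of epithelium that inhibits cysteine peptidases, had 305 and 87 reads and a difference of -1.87 (-2.24 to -1.53). Cst3, the secreted inhibitor cystatin C, was the most abundant with 8230 and 4849 reads and a value of -0.83 (-0.88 to -0.78), while Cstb, its intracellular relative, had 549 and 862 reads and a value of 0.58. Cst3 and Cstb were named after their values were seen.

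In the list of nutrient sensing at the lysosome the median was -0.03 over 20 genes. The Rag GTPase genes Rragd (133 and 37 reads, -1.89) and Rragb (57 and 4 reads, -3.61) were lower. The other Rag genes of the list had more reads and were within 2-fold. These were Rraga (1444 and 1511 reads, -0.0038) and Rragc (1796 and 1670 reads, -0.17). Castor1, listed under its older name Gatsl3, had 34 and 77 reads and a value of 1.09 (0.51 to 1.74). It was 0.989 with the gene length trend taken out. Rragb, Rraga, Rragc and Castor1 lie outside the rule for named genes and were chosen after their values were seen. Autophagy genes had a median of -0.0072 over 32 genes, with Atg9b past 2-fold (315 and 693 reads, 1.07, interval 0.87 to 1.27) and 0 lower. The Atg9b value was 0.996 by library size without mitochondrial genes.

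**Figure D5:**
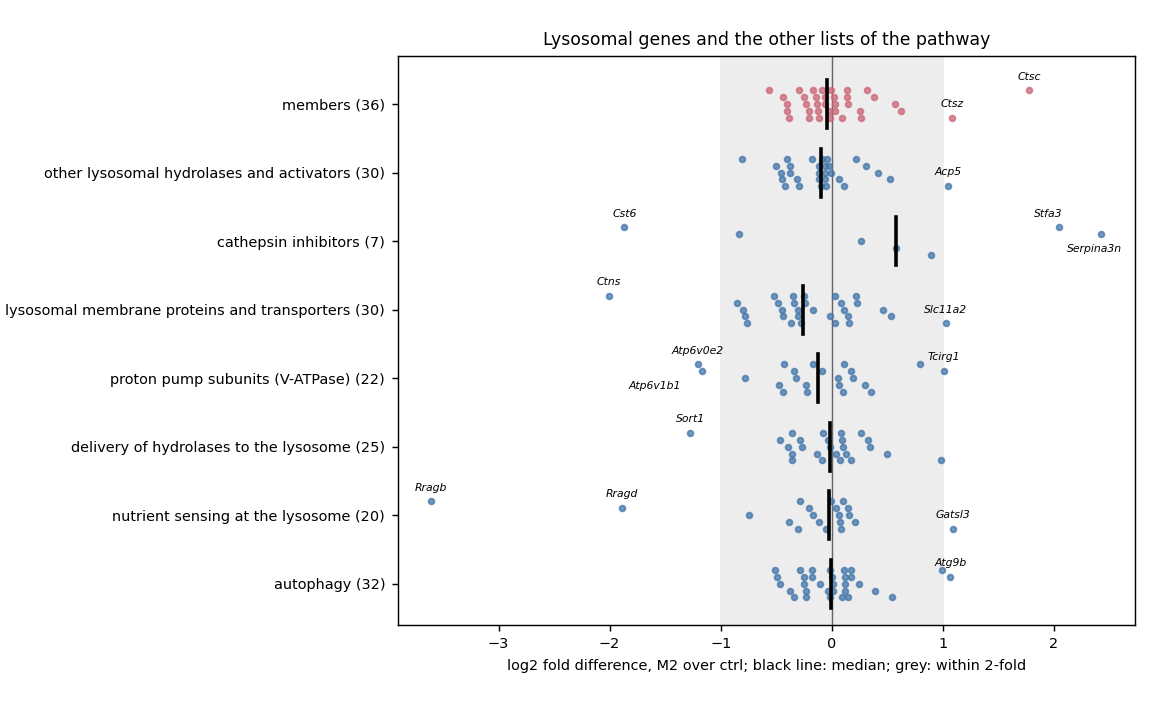
Log2 fold differences (x axis, M2 over ctrl) of the 36 lysosomal genes and of the genes with at least 10 reads in 7 other lists, each point a gene, with the median of each list as a black line and the number of genes in brackets; the further cathepsins, with 1 countable gene, are not drawn. Genes past 2-fold (outside the grey range) are named, with Castor1 as Gatsl3, among them Ctns at -2.00 and Serpina3n at 2.43.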

How the data were processed

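The labels name the SMARTER mRNA-Seq kit for library preparation, and the study's methods name the HiSeq X 10 sequencer. The labels and the methods differ in the RNA extraction reagent. The authors deposited raw read counts per gene without normalization. GRCm38 and mm10 are named as builds in the submitters' processing notes. The aligner, the counting program, the annotation and the use of strand are not given in the sources used here. Gene length is the summed exon length in the deposited table.

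The list of 38 genes, the other gene lists and the threshold were chosen with earlier results of these data known. Library sizes were scaled by the trimmed mean of M values (TMM, edgeR 4.0.16, R 4.3.3), with factors of 1.02 for ctrl and 0.980 for M2. Log2 fold differences used a pseudocount of 1 read, and genes with at least 10 reads summed over both libraries were counted. A gene was called past a 2-fold difference. With 1 library per group no dispersion can be estimated, so neither an edgeR quasi-likelihood test nor DESeq2 was run and no test of the conditions was possible. The 95% interval of a fold difference was derived by the Clopper-Pearson method from the M2 part of a gene's reads. Those of levels are 95% Poisson intervals. Both cover counting error only, as there is 1 library per group. No molecular identifiers are stated, so repeated reads of the same molecule cannot be told apart and the intervals may be too narrow. The functions were tested on simulated data. Named in full were genes past 2-fold, the 5 most abundant per length, the regulators, and genes at or under 3 reads, and from each other list up to 3 genes per direction past 2-fold with at least 100 reads in one library. The macrophage, fibroblast, basal and luminal marker lists were used as checks. Castor1 was matched through a RefSeq synonym. Protein sequences were not used here.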

Additional observations from a re-analysis of the deposited data

How the results depend on the processing

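No paired analysis was possible because there is a single library of each kind. The scaling, the filter on low counts, the pseudocount and a trend with gene length were each changed in turn. Of 324 values of the 36 counted lysosomal genes under 9 alternatives, 300 stayed within their counting interval. 1 gene changed its side of 2-fold (Ctsz, 0.996 with the gene length trend taken out), and 6 with values near 0 (Ctsl, Glb1, Lamp2, Mitf, Smpd1 and Tfeb) changed sign. Ctsc ran from 1.70 to 1.80.

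The number of lysosomal genes at least 2-fold higher was 1 without that trend and 1 with the whole interval past 2-fold. The number lower was 1 with a minimum of 1 read, which adds Ctss at 5 and 2 reads. The log2 ratio of their summed reads, 0.08, was 0.0253 by library size only, 0.11 with median-of-ratios factors, 0.0146 without mitochondrial genes, 0.0383 without Ctsd and 0.0280 without Ctsc and Ctsz, the last chosen after seeing the data. The ratio of the membrane and transporter list, -0.49, was -0.11 without Scarb2, Ctns and Cd164, also chosen after seeing the data. Scalings moved the median of all genes by under 0.1.

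For the other lists most counts were of 0 to 2 genes and moved by 1 gene. Higher genes numbered 0 for hydrolases (library size, without mitochondrial genes, trend, whole interval), for membrane proteins (library size, without mitochondrial genes, whole interval), for the proton pump (the same 3 and a pseudocount of 5), for nutrient sensing (trend, whole interval; 2 with a minimum of 1 read) and for autophagy (without mitochondrial genes, whole interval), and 1 for inhibitors (at least 1 CPM, whole interval) and for delivery (median-of-ratios, trend). Autophagy had 2 with median-of-ratios factors. Lower genes numbered 1 for further cathepsins with a minimum of 1 read, for the proton pump (whole interval) and for nutrient sensing (at least 1 CPM). At 1.5-fold, higher genes were 1 for further cathepsins and delivery and 2 for the proton pump and autophagy, and lower genes 1 for hydrolases, 2 for inhibitors and 5 for membrane proteins. The inhibitor median of 0.58 was 0.42 with a minimum of 1 read or with at least 1 CPM, and that of further cathepsins was -1.04 with a minimum of 1 read. These settings change which genes are counted. Depth limits Ctss, Laptm5 and Ctsk.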

Other observations

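Ctsc is best known as the enzyme that activates the serine peptidases of neutrophils, mast cells and cytotoxic lymphocytes. A list of 13 of these was written after the Ctsc value was seen. At or under 3 reads in both libraries were 11 of them, including the neutrophil elastase gene Elane, Ctsg and the granzyme gene Gzmb, which had 0 reads in both. The exceptions were Prss57, with 345 reads in ctrl and 411 in M2 and a log2 difference of 0.18 (95% counting interval -0.03 to 0.39), and Prtn3, with 22 and 31 reads and a difference of 0.41 (-0.41 to 1.28). Both intervals include 0, so no difference was detectable for them at this depth. For scale, 24415 of the 49492 genes in the count table had a read in ctrl and 24986 in M2.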
